A study of Mus musculus with 8 samples.

Results

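Iron and heme handling in tumor-associated macrophages (TAMs) was described through 10 genes. Hmox1 and Blvrb were grouped under heme breakdown. Tfrc, Slc11a1 and Slc11a2 bring iron into the cytosol, and Fth1 and Ftl1 store it. Slc40a1 and Cp serve iron export, and Spic is a transcription factor induced by heme. The genes were chosen by symbol, and all 10 were found among the 53247 rows of the deposited expression table, each in 1 row. Macrophages take up aging red cells and dying cells, open the heme ring with heme oxygenase and return the iron to the circulation, and in an iron-rich state they hold it in ferritin. The cell reads its iron level with 2 iron regulatory proteins, which bind short hairpins called iron-responsive elements in mRNAs of this pathway. A hairpin in the 5′ UTR lets the proteins block translation, and hairpins in the 3′ UTR of the transferrin receptor mRNA let them protect it from decay. Heme itself releases the repressor BACH1 from target genes, which then respond to the oxidative stress factor NRF2.

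RNA-Seq was run on TAMs from subcutaneous tumors of Lewis lung carcinoma (LLC), a mouse lung cancer line, in C57/BL6 mice 10 weeks old. The 4 WT samples came from WT hosts and the 4 miR-21 null samples from hosts without microRNA-21 (miR-21), and tumors were taken 14 days after implantation. In both genotypes the TAMs were sorted as positive for CD45, CD11b, F4/80 and MHC class II. The deletion was in the host and not only in its macrophages, the implanted cells were the same line in both genotypes, and 1 miR-21 null title carries a pair of numbers, which may or may not mean pooled mice, and was counted as replicate 1.

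Depth, estimated from the spacing of the low values, was 20.2 to 33.4 in units of 1000000 reads per sample, so that 1 read was worth 0.0300 to 0.0495 counts per 1000000 reads (CPM), the unit of every level below unless a length is named. The 10 macrophage markers checked, such as Adgre1 (F4/80), Itgam and Cd68, summed to between 11272 and 13403 in WT and between 9914 and 12759 in miR-21 null samples; Adgre1 (log2 fold change of -0.38, limma adjusted p of 0.0014) and Csf1r (-0.48, 0.00538) were lower at an adjusted p of at most 0.05. The precursor gene Mir21a was listed at the floor of the table, 0.0001, in all 8 samples, so that the genotype could not be checked by it. The erythroid markers, nearly all of them globin mRNA, summed to 91.5 to 211 in WT and to 24.2 to 34.3 in miR-21 null samples, and the 4 that could be tested, all globins, fell, whereas Rhag was at the floor and Klf1 was below 1 in every sample. The neutrophil markers summed to 823 to 1238 against 608 to 789, the fibroblast markers to 48.6 to 121 against 8.14 to 42.3, the B cell markers to 11.4 to 17.6 against 3.84 to 11.3, and the epithelial and tumor markers to 18.8 to 24.8 against 12.7 to 17.9, in WT and miR-21 null samples respectively. For T and NK cells (18.4 to 40.6 against 8.49 to 35.8), dendritic cells (11.2 to 19.9 against 15.2 to 38.4) and endothelial cells (153 to 304 against 203 to 292) the sums overlapped. Single markers in these sums went in opposite directions: Cd4 (log2 fold change of -2.35, limma adjusted p of 0.00206) and Cd209a (-1.28, 0.0187) were lower, and Cd8a (1.28, 0.00804) and Clec9a (1.26, 0.00532) higher, in miR-21 null samples. In sorted bulk samples, fewer cells of a type and less RNA per cell cannot be told apart.

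Between the genotypes, Tfrc and Cp fell and Blvrb rose, while Hmox1, Fth1 and Slc11a1 were higher in all 4 miR-21 null samples than in any WT sample but missed the stricter limits. A gene was called at an adjusted p of at most 0.005 (limma, Benjamini-Hochberg over all tested genes) with a fold change over 1.5. Of the 10 genes, all tested, 3 were called, beside 7.12% of the 13850 genes tested; 1 was higher in miR-21 null TAMs (2.89% of all genes) and 2 were lower (4.23%). At an adjusted p of at most 0.05, 6 of the 10 passed, beside 36.0% of all genes, and the values of the genotypes did not overlap for the same number, beside 35.1%. The median log2 fold change of the 10 was 0.32 and that of all genes was -0.10. Rescaling by the median of ratios brought the latter to -0.0030 and quantile normalization to -0.0076, and the calls over all genes, 400 higher and 586 lower, became 520 and 350 with the first and 491 and 337 with the second.

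**Figure D1:**
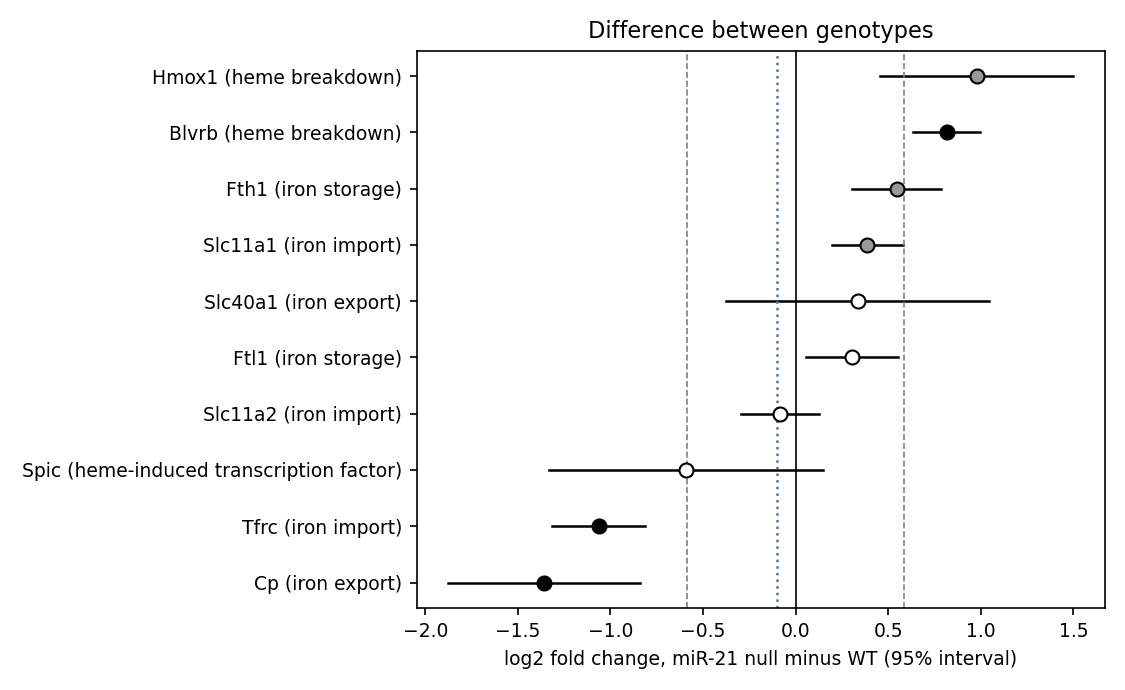
The log2 fold change (miR-21 null minus WT) of each gene is plotted with its 95% interval from limma. Black circles were called. Grey circles passed an adjusted p of 0.05 but were not called, and white circles did not pass 0.05. Dashed lines mark a fold change of 1.5 and the dotted line the median of all tested genes, -0.10. The range runs from Cp at -1.36 to Hmox1 at 0.98.

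The elements through which iron acts on these mRNAs were read from the GENCODE vM21 transcripts of the mouse genome GRCm38, as the letters CAGTGN between the arms of a 5-base paired stem, with a C before the first arm. Fth1, Ftl1 and Slc40a1 held 1 copy each in the 5′ UTR, a feature of 0.209% of the 11501 coding genes searched, and Tfrc held 4 copies in the 3′ UTR, where 0.809% of the genes held any. The 7 copies are shown because they join the genes described below, with the 6-base loop in capitals.
Fth1, 5′ UTR, chr19:9982733-9982760, plus strand: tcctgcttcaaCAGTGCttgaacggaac
Ftl1, 5′ UTR, chr7:45459779-45459806, minus strand: tcttgcttcaaCAGTGTttgaacggaac
Slc40a1, 5′ UTR, chr1:45925465-45925492, minus strand: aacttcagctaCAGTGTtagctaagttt
Tfrc, 3′ UTR, chr16:32631220-32631247, plus strand: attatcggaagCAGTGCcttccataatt
Tfrc, 3′ UTR, chr16:32631599-32631626, plus strand: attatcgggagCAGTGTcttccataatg
Tfrc, 3′ UTR, chr16:32631664-32631691, plus strand: tatatcggagaCAGTGAtctccatatgt
Tfrc, 3′ UTR, chr16:32631711-32631738, plus strand: attatcgggaaCAGTGTttcccataatt
No such element was found in a UTR of the other 6 genes by these letters. The search required the whole 5-base stem to pair, so it would miss an element with an unpaired base there. Absence of an element cannot be read from it. The elements act on translation and on mRNA decay, and only mRNA levels were measured here.

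The mature miR-21 that the null hosts lack is printed from RefSeq (GRCm38.p6, chr11:86584120-86584141, minus strand), with its seed, bases 2 to 8, in capitals.
mmu-miR-21a-5p: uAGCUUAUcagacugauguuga
No annotated 3′ UTR of the 10 genes held a match to this seed, that is the 8 letters ATAAGCTA, or 7 of them from either end, which 13.2% of the 11501 coding genes held. The antioxidant response element letters TGACNNNGC, bound by NRF2 and BACH1 and searched on both strands, were in none of the 11 promoters of 300 bases that RefSeq (GRCm38.p6) gave for 7 of the genes (Blvrb, Cp, Fth1, Ftl1, Slc11a1, Spic and Tfrc), and in 12.4% of all 32851 promoters. Hmox1, Slc11a2 and Slc40a1 were not matched among these promoters. The search covered only 250 bases before and 50 after each start, so it cannot tell whether the element lies farther away.

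Per kilobase of transcript, which allows genes to be set against each other, Fth1 was the most abundant of the 10 in WT TAMs at 2498 ± 170 CPM per kilobase (SD, n = 4), followed by Ftl1 at 1863 ± 205, Hmox1 at 402 ± 55.8, Slc11a1 at 161 ± 19.3, Slc40a1 at 104 ± 34.7, Blvrb at 64.2 ± 5.53, Spic at 42.2 ± 10.2, Tfrc at 11.6 ± 1.06, Slc11a2 at 11.3 ± 1.61 and Cp at 3.06 ± 0.988. In miR-21 null TAMs the order was the same but for Tfrc, which at 5.48 ± 0.953 stood below Slc11a2 at 10.5 ± 0.585. The place of Ftl1 held only for reads listed under that symbol: summed with the copies described below, Ftl1 ran from 2787 to 3497 per kilobase in WT and Fth1 from 2314 to 2709.7, and Ftl1 was above Fth1 in all 8 samples. Of neighbours in the WT order, Slc40a1 and Blvrb overlapped between samples, as did Tfrc and Slc11a2; in miR-21 null samples Slc40a1 and Blvrb again overlapped, and the lowest Slc11a2 value, 9.92, was above the highest Tfrc value, 6.82. Storage mRNAs were thus far more abundant than import mRNAs in both genotypes.

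Among the genes of heme breakdown, Hmox1 encodes the inducible heme oxygenase, which opens the heme ring and frees iron, carbon monoxide and biliverdin. Its level was 718, 631, 660 and 510.3 in WT replicates 1 to 4 and 957, 1996, 855 and 1409.7 in miR-21 null replicates 1 to 4. Every miR-21 null sample lay above every WT sample, and the miR-21 null samples were the more scattered, with a coefficient of variation of 39.9% against 13.9%. The means, 630.02 ± 87.6 and 1304 ± 520.3 (SD, n = 4 each), differed 2.07-fold, and the log2 fold change was 0.98 ± 0.24 (SE) with a limma adjusted p of 0.00994, past 0.05 but not the stricter limit.

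Blvrb encodes biliverdin reductase B, a flavin and biliverdin reductase. It stood at 56.7, 56.4, 65.7 and 65.6 in the WT samples and at 102, 117, 97.4 and 116 in the miR-21 null samples. The groups were far apart and the samples within each were close, with coefficients of variation of 8.61% and 9.16%. Blvrb rose 1.77-fold, from 61.1 ± 5.26 to 108 ± 9.92 (SD, n = 4), with a log2 fold change of 0.82 ± 0.080 (SE) and a limma adjusted p of 9.53e-05, and it was called in all 17 alternative fits. The counterpart that makes most adult bilirubin, Blvra, stood at 56.3 ± 2.04 and 53.1 ± 6.53, with a limma adjusted p of 0.427, and the constitutive heme oxygenase Hmox2 at 87.7 ± 2.11 and 81.9 ± 3.06, with 0.136; Blvra was named after its values were seen.

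**Figure D2:**
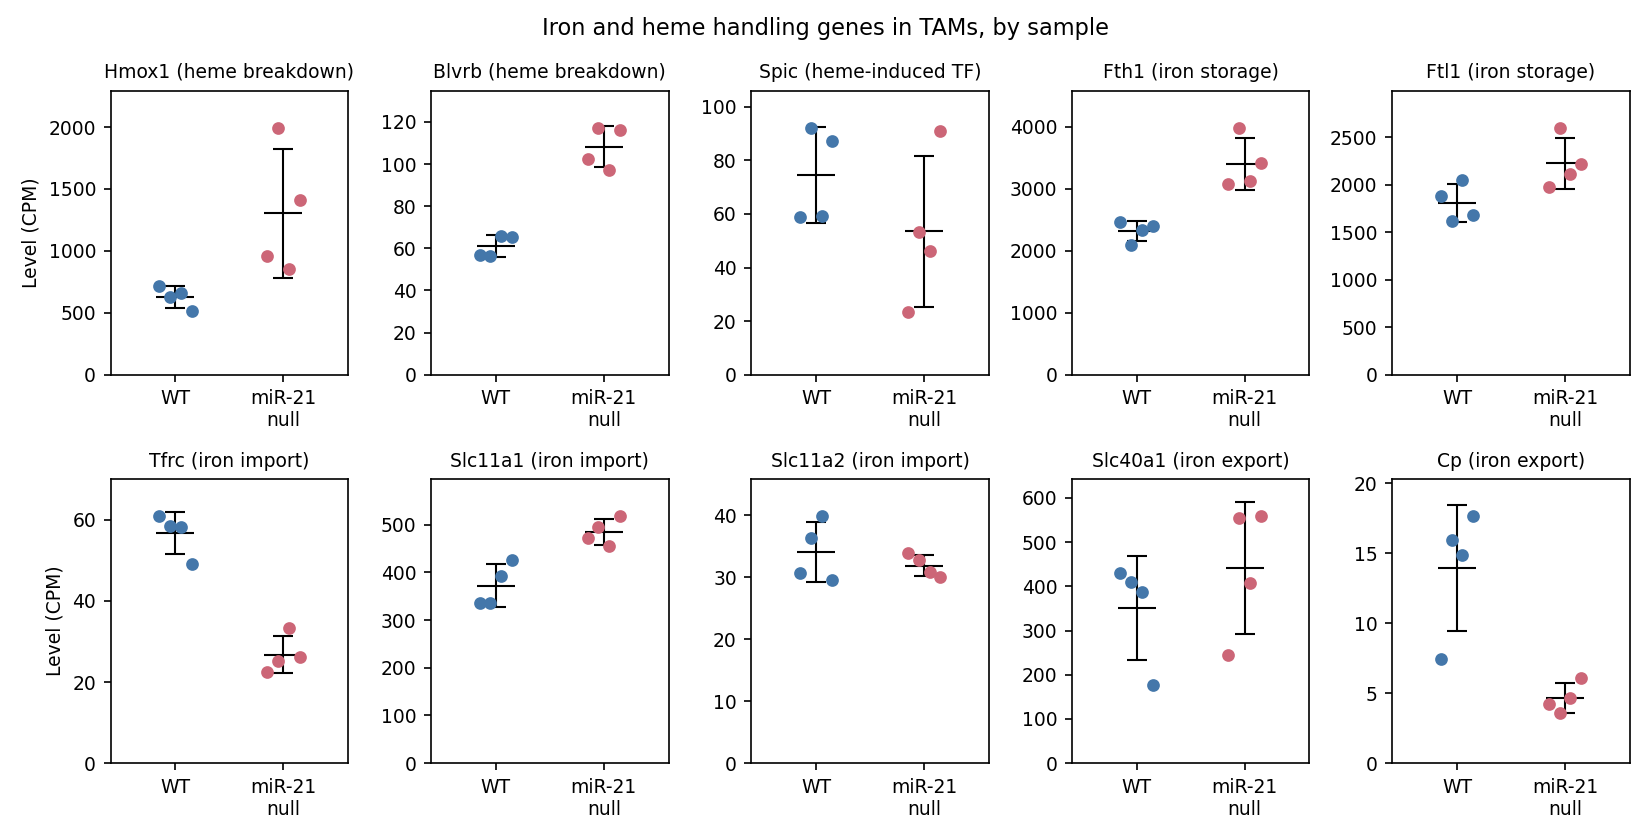
Each panel plots the level of 1 gene in CPM on an axis from 0, with 1 point per sample and the mean ± SD (n = 4) in black for WT and miR-21 null TAMs. Tfrc and Cp sit lower and Hmox1, Blvrb, Fth1 and Slc11a1 higher in all miR-21 null samples, whereas Ftl1, Slc11a2, Slc40a1 and Spic overlap.

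Among the storage genes, Fth1 encodes the ferritin heavy chain, which oxidizes iron as it enters the ferritin shell. It measured 2461, 2099, 2329 and 2396 in WT and 3074, 3987, 3126 and 3415 in miR-21 null samples. All miR-21 null values lay above all WT values, by 1.47-fold in the mean (2321 ± 158 and 3400.3 ± 419, SD, n = 4). The log2 fold change was 0.55 ± 0.11 (SE) with a limma adjusted p of 0.00367, which met the limit on p but not that on the fold change. With the median of ratios Fth1 was called, at 0.66 and an adjusted p of 0.0019, and with quantile normalization it was 0.33 with an adjusted p of 0.0852.

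Ftl1 encodes the ferritin light chain, which helps the iron core to form. It measured 1875, 1614, 2049.8 and 1676 in WT and 1977, 2600.5, 2107 and 2221 in miR-21 null samples. The groups overlapped through WT replicate 3 and miR-21 null replicate 1. Its log2 fold change of 0.30 ± 0.11 (SE) missed both limits with a limma adjusted p of 0.0577, and its 95% interval ran from 0.054 to 0.55. The limma adjusted p was 0.0172 with the median of ratios and 0.425 with quantile normalization, and it fell below 0.05 without WT replicate 3 or miR-21 null replicate 1 (lowest 0.0420).

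Reads of the light chain are shared out among near-identical copies. Ftl1-ps1, a copy on chromosome 13 with 99.6% identity over the 549 coding bases, was itself listed at 1063 to 1292 in WT and at 1395 to 2054 in miR-21 null samples, with a log2 fold change of 0.51 ± 0.12 (SE) and a limma adjusted p of 0.00821. All copies of at least 90% identity held 39.4% to 40.2% of the light chain sum in WT and 40.2% to 45.8% in miR-21 null samples. Summed with its named copies, Ftl1 had a log2 fold change of 0.39 and a limma adjusted p of 0.0317, and the groups then did not overlap. Ftl2-ps stood at 3.49 to 36.7 and Ftl1-ps2 at 0.0504 to 0.539. For Fth1 the copies mattered little: Gm6977, the only one of at least 90% identity, held 1.91% to 2.44% of the sum, Fth-ps2 and Fth-ps3 stayed below 1.2, and the log2 fold change of the sum with the named copies was 0.55.

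Among the import genes, Tfrc encodes the transferrin receptor, the entry for iron bound to transferrin. It stood at 60.9, 58.5, 58.1 and 49.1 in WT and at 22.4, 25.3, 33.3 and 26.2 in miR-21 null samples. The highest miR-21 null value was well below the lowest WT value. Tfrc fell 2.12-fold, from 56.7 ± 5.16 to 26.8 ± 4.66 (SD, n = 4), with a log2 fold change of -1.06 ± 0.11 (SE) and a limma adjusted p of 0.000145. It was called in all 17 alternative fits, between -1.17 and -0.86. Red cell precursors also carry this receptor, and the globin mRNAs moved the same way: Hbb-bs stood at 42.7, 83.1, 38.0 and 93.3 in WT and at 12.2, 10.5, 9.73 and 14.9 in miR-21 null samples. Among WT samples the globin mRNA was lowest in replicates 1 and 3 and highest in replicates 2 and 4, whereas Tfrc was lowest in replicate 4. The part of red cell precursors in the Tfrc result was not tested.

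Slc11a1 encodes NRAMP1, a metal transporter of the phagosome membrane of macrophages, and this mouse strain carries an allele whose protein does not function. Its mRNA stood at 337, 335, 392 and 426 in WT and at 472, 496, 455 and 518 in miR-21 null samples. The groups did not overlap, with 455 as the lowest miR-21 null and 426 as the highest WT value. The log2 fold change was 0.39 ± 0.086 (SE) with a limma adjusted p of 0.00688, under the fold limit in each of the 17 alternative fits.

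Slc11a2 encodes DMT1, which moves ferrous iron out of the endosome after transferrin is taken up. It stood at 30.7, 36.4, 39.9 and 29.5 in WT and at 33.9, 32.8, 30.9 and 30.0 in miR-21 null samples, and the miR-21 null values all lay within the WT range. A log2 fold change of -0.086 was found, with a 95% interval from -0.29 to 0.12, a limma adjusted p of 0.506, and a sign that turned with quantile normalization (0.00082) and the median of ratios (0.024). The import genes therefore did not move as a group: 1 fell, 1 was higher at the second limit and 1 passed neither.

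Among the export genes, Slc40a1 encodes ferroportin, the iron exporter of the plasma membrane. It stood at 429.9, 411, 386 and 178 in WT and at 244, 555, 409 and 559 in miR-21 null samples. WT replicate 4 and miR-21 null replicate 1 were each far below the rest of their group, and the groups overlapped. Its log2 fold change was 0.34 ± 0.32 (SE) with a 95% interval from -0.37 to 1.05 and a limma adjusted p of 0.440. Without WT replicate 4 it was 0.038 and without miR-21 null replicate 1 it was 0.60, the lowest and highest of the fits that leave out 1 sample.

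Cp encodes ceruloplasmin, a copper enzyme that oxidizes the iron leaving through ferroportin. It was the least abundant of the 10, at 7.44, 16.0, 14.9 and 17.7 in WT and at 4.24, 3.62, 4.69 and 6.09 in miR-21 null samples, the lowest of which still rested on over 100 reads. The groups did not overlap, although WT replicate 1 lay closer to the miR-21 null samples than to the other WT samples. Cp fell 3.00-fold, from 14.0 ± 4.51 to 4.66 ± 1.05 (SD, n = 4), with a log2 fold change of -1.36 ± 0.23 (SE) and a limma adjusted p of 0.00184. The call was lost without WT replicate 2 or 3 or miR-21 null replicate 1, 2 or 3, with limma adjusted p values of 0.00601 to 0.00740, and with no filter on low values, at 0.0124; the log2 fold change without 1 sample ran from -1.61 to -1.23. Pseudocounts of 10 and 0.1 gave -0.69 and -1.52. Cp shares 108 exon bases with Hps3 on the opposite strand, which stood at 84.9 to 114 with a log2 fold change of -0.30, and whether reads were counted by strand is not given in the sources used here. Fibroblast markers moved the same way as Cp, with Col3a1 at 23.7 to 56.0 in WT and 2.65 to 18.3 in miR-21 null samples. The part of fibroblasts in the Cp result was not tested.

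Spic encodes Spi-C, which heme induces and which is required for the iron-recycling macrophages of the splenic red pulp. It stood at 58.8, 92.2, 59.2 and 87.4 in WT and at 23.4, 53.3, 46.2 and 90.9 in miR-21 null samples. Only miR-21 null replicate 4 reached into the WT range, and its value was close to the highest of all. The log2 fold change was -0.59 ± 0.33 (SE) with a limma adjusted p of 0.191; without miR-21 null replicate 4 it was -0.89 with 0.0329, and without miR-21 null replicate 1 it was -0.26 with 0.443. Within the miR-21 null samples Spic and Slc40a1 had the same order (replicates 1, 3, 2 and 4 from the lowest), and within the WT samples they did not. The list of other red pulp macrophage markers holds genes that are not particular to those cells. Of this list, Adgre4 fell from 126 ± 36.0 to 27.9 ± 14.3 (limma adjusted p of 0.000691). It was not called with no filter on low values (limma adjusted p of 0.00662). Siglec1 stood at 390.5 ± 16.4 and 283 ± 45.9 (limma adjusted p of 0.00651) and Treml4 at 89.0 ± 18.2 and 51.7 ± 23.4 (0.0325), whereas Vcam1 stood at 539.8 ± 162 and 445 ± 113 (0.396) and Cd5l at 3.05 ± 0.705 and 6.24 ± 3.12 (0.0646), and Clec4f was at the floor. Adgre4 alone of this list was called, and the other 5 markers were named to show the whole list. The list as a whole summed to 971 to 1357 in WT and 568 to 997 in miR-21 null samples.

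Import was then set against storage and export within each sample, as the difference of log2(CPM + 1) between 1 import gene and 1 storage or export gene. This answers whether the balance of the mRNAs moved, it uses the same values as above, and no test was applied. Fth1 reads per Tfrc read were 40.4, 35.9, 40.1 and 48.8 in WT and 138, 158, 93.8 and 131 in miR-21 null samples. The lowest miR-21 null ratio was above the highest WT ratio, and the mean went from 41.3 ± 5.39 to 129.9 ± 26.7 (SD, n = 4). Ftl1 reads per Tfrc read ran from 27.6 to 35.3 in WT and from 63.2 to 103 in miR-21 null samples, and Slc40a1 reads per Tfrc read from 3.62 to 7.06 and from 10.9 to 22.0. In every miR-21 null sample Tfrc was lower relative to both storage genes and to the exporter than in any WT sample.

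Of the 12 pairs of an import with a storage or export gene, 6 had groups that did not overlap; 4 of these were lower and 2 higher in miR-21 null samples. The pairs reuse the single genes already described and no share was computed over other pairs of genes, so the count is a description only. The lower ones were Tfrc minus Fth1 (-5.33 ± 0.18 in WT and -6.94 ± 0.31 in miR-21 null), Tfrc minus Ftl1 (-4.97 ± 0.16 and -6.33 ± 0.29), Tfrc minus Slc40a1 (-2.53 ± 0.47 and -3.93 ± 0.53) and Slc11a2 minus Fth1 (-6.05 ± 0.27 and -6.69 ± 0.19). The higher ones were Slc11a1 minus Cp (4.69 ± 0.44 and 6.44 ± 0.24) and Slc11a2 minus Cp (1.28 ± 0.50 and 2.56 ± 0.33). Slc11a1 minus Fth1 stood at -2.64 ± 0.16 and -2.80 ± 0.14, with overlapping groups. Averaged over a role, import minus storage moved from -4.49 ± 0.12 to -5.17 ± 0.17 without overlap. Within the import mean, Tfrc had a log2 fold change of -1.06, Slc11a2 of -0.086 and Slc11a1 of 0.39. Import minus export went from 0.39 ± 0.21 to 0.65 ± 0.31 with overlap, since Cp pulled the export mean down while Slc40a1 did not.

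**Figure D3:**
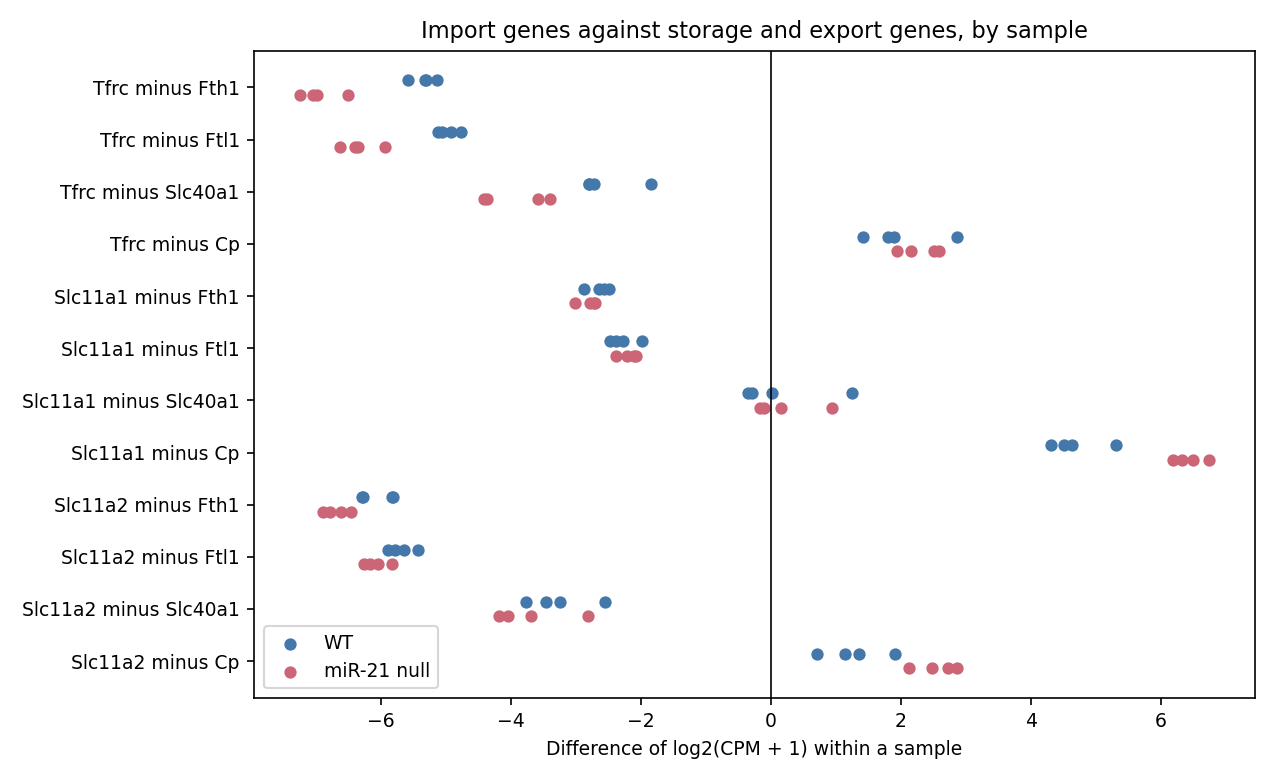
Each row plots, for 1 pair of an import gene and a storage or export gene, the difference of log2(CPM + 1) in the 4 WT and the 4 miR-21 null samples. Tfrc minus Fth1 leaves the widest gap between the genotypes, at -5.58 to -5.14 in WT and -7.25 to -6.51 in miR-21 null samples; Slc11a1 minus Ftl1 overlaps.

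The wider pathway was followed with 10 lists of 84 other genes, of which 73 were tested. In all, 13 were called, 6 higher and 7 lower in miR-21 null TAMs, and 11 were higher and 21 lower at an adjusted p of at most 0.05; the median log2 fold change was -0.058. The balance depended on the scaling: 7 were called higher and 4 lower with quantile normalization (median -0.0046), and 6 and 4 with the median of ratios (median 0.053). Over the tested genes of the lists, 17.8% were called beside 7.12% of all genes, and 43.8% passed 0.05 beside 36.0%. The 7-base or 8-base complement of the miR-21 seed was in a 3′ UTR of 10 of the 73, beside 13.2% of all coding genes searched, and among the called genes Slc39a8, Slc39a14 and Steap4 held one. Fbxl5, Hfe, Slc7a11 and Txnrd1 were called in all 17 alternative fits. Lcn2 and Slc46a1 were called in only 6, Fdxr in 10, and Slc39a14 and Steap4 in 12, where leaving out WT replicate 2 or miR-21 null replicate 1 or 2 was enough to lose the call of either.

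Among sensors and regulators, 1 of 10 tested genes was called higher and 1 lower. Fbxl5, the subunit of a ubiquitin ligase that binds iron and marks iron regulatory protein 2 for decay, stood at 184, 168, 163 and 175 in WT and at 392, 451, 422 and 409.7 in miR-21 null samples. The groups were far apart and tight, with a log2 fold change of 1.27 ± 0.061 (SE) and a limma adjusted p of 1.53e-06. Hfe, which signals transferrin iron at the cell surface, fell from between 96.9 and 140.1 in WT to between 49.2 and 65.9 in miR-21 null samples (limma adjusted p of 0.000226). The iron regulatory proteins themselves differed from each other: Aco1, which encodes the first, had a log2 fold change of -0.39 with a limma adjusted p of 0.00145, and Ireb2, which encodes the second, had 0.10 with 0.255. Neither the heme sensor Bach1 (-0.072, adjusted p of 0.350) nor Nfe2l2, which encodes NRF2 (-0.10, adjusted p of 0.437), passed in limma, and both turned positive with the median of ratios. Aco1, Ireb2, Bach1 and Nfe2l2 were named after their values were seen.

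Iron uptake and reduction had 1 gene called higher and 3 lower of 10 tested, and 7 lower at 0.05, with a median log2 fold change of -0.60. Slc39a8 and Slc39a14 are related transporters of zinc and of iron that is not bound to transferrin, and they moved in opposite directions. Slc39a8 stood at 9.96, 11.1, 8.56 and 7.49 in WT and at 2.58, 4.47, 4.30 and 3.37 in miR-21 null samples. Its log2 fold change was -1.14 ± 0.16 (SE) with a limma adjusted p of 0.000577. It was called in 16 of 17 alternative fits, with log2 fold changes from -1.33 to -0.49. Slc39a14 stood at 74.9, 52.1, 66.2 and 53.1 in WT and at 123, 109, 99.3 and 87.5 in miR-21 null samples, a log2 fold change of 0.76 ± 0.13 (SE) with a limma adjusted p of 0.00188. Steap4, a metalloreductase, fell from a mean of 26.1 ± 7.70 to 9.93 ± 1.98 (limma adjusted p of 0.0016). Lcn2 encodes a neutrophil and macrophage protein that binds siderophores. It fell from a range of 18.6 to 32.4 to a range of 8.28 to 16.5 (limma adjusted p of 0.00444). The summed neutrophil markers given above moved the same way as Lcn2, and the part of neutrophils in it was not tested. Trf, which encodes transferrin, stood at 347, 581, 543 and 258 in WT and at 230, 169, 183 and 195 in miR-21 null samples, and with a limma adjusted p of 0.00524 it just missed, whereas without WT replicate 4 it passed at 0.000609; it was named after its values were seen.

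In heme and hemoglobin uptake, 1 of 6 tested genes was called, and 1 was higher and 3 lower at 0.05. Slc46a1, a transporter of folate and heme, fell from between 7.05 and 9.87 to between 4.53 and 5.598 (log2 fold change of -0.62, limma adjusted p of 0.00204) and was called in 6 of 17 alternative fits. The largest change of the list was that of Cd163, the scavenger receptor for hemoglobin bound to haptoglobin, named after its values were seen: 68.4, 102, 115 and 15.6 in WT and 12.5, 26.5, 17.2 and 7.67 in miR-21 null samples. WT replicate 4 fell within the miR-21 null range, as it stood apart for Slc40a1, and the log2 fold change was -1.97 ± 0.57 (SE) with a limma adjusted p of 0.0222. Without WT replicate 4 it was -2.60 with a limma adjusted p of 0.000596, and without WT replicate 2 or 3 or miR-21 null replicate 1 or 4 the adjusted p exceeded 0.05, at up to 0.0644, as it did with no filter on low values, at 0.0859. The other genes past 0.05 were also named after their values were seen. Hp, which encodes haptoglobin, had a log2 fold change of -0.85 and a limma adjusted p of 0.00587. Its lowest WT value was 25.97 and its highest miR-21 null value 25.94. The summed neutrophil markers moved the same way as Hp, and the part of neutrophils in it was not tested. Slc48a1, which moves heme out of the phagolysosome, had a log2 fold change of 0.58 and a limma adjusted p of 0.0151.

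Targets of NRF2 other than the 10 genes had 4 of 11 called, all higher. Slc7a11, the cystine importer, stood at 68.8, 53.1, 49.2 and 43.4 in WT and at 173, 187, 128 and 144 in miR-21 null samples, a log2 fold change of 1.55 ± 0.15 (SE) with a limma adjusted p of 7.75e-05. Prdx1, a peroxidase, rose from 327 ± 16.9 to 609.9 ± 134, Srxn1, which repairs oxidized peroxiredoxin, from 26.8 ± 2.92 to 46.6 ± 8.28, and Txnrd1, thioredoxin reductase, from 99.2 ± 7.41 to 157 ± 18.4 (limma adjusted p of 0.00098, 0.0013 and 0.000586). Of the other 7, Gclm stood at 18.3 ± 1.97 and 31.4 ± 10.6 and was higher at the second limit only (0.70, limma adjusted p of 0.0186), Nqo1 (-0.15, adjusted p of 0.363), Gclc (0.071, 0.525) and Gsr (-0.030, 0.849) passed neither limit in limma, and Osgin1 was lower at -0.49 with 0.00248. Among the miR-21 null samples Prdx1 and Txnrd1 had the order of Hmox1, highest in replicate 2, then 4, 1 and 3, and Slc7a11 and Srxn1 did not. Gclm, Nqo1, Gclc, Gsr and Osgin1 were named after their values were seen.

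Heme synthesis had 1 of 9 genes called and 4 lower at 0.05. The called gene, Alas2, encodes the erythroid form of the first enzyme and fell from 2.50 ± 0.769 to 0.394 ± 0.0602 (limma adjusted p of 0.000299), while Alas1, the form of other cells, named as its counterpart after its values were seen, stood at 61.2 ± 1.14 and 60.6 ± 5.03 with 0.851. Alas2 was a low gene whose log2 fold change was -1.30, -2.35 with a pseudocount of 0.1, and -0.26 and no longer called with 10. Alas2 moved with the globin mRNAs given above, and their part in it was not tested. Of the 14 genes of mitochondrial iron and iron-sulfur clusters, Fdxr, ferredoxin reductase, was called lower, from 10.9 ± 0.734 to 6.87 ± 0.532 (log2 fold change of -0.59, limma adjusted p of 0.000657), and was not called with either rescaling.

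The remaining lists had no gene called. In storage and ferritin turnover, Ncoa4, the receptor that delivers ferritin to lysosomes, was lowest at -0.59 (117 ± 19.3 and 76.8 ± 9.47; limma adjusted p of 0.00547) and called without WT replicate 4 (-0.72, 0.000666), and Pcbp1, an iron chaperone, was highest at 0.025 (0.724), a sign that turned with quantile normalization. In heme breakdown and heme export, Abcg2, which exports porphyrins, was highest at 0.10 (0.466) and Hmox2 lowest at -0.097 (0.136), the latter turning positive with the median of ratios. In iron export and ferroxidases only App was tested, at 0.18 (0.138). In lipid peroxide defense, Aifm2, a reductase of ubiquinone, was highest at 0.45 (0.00336), called with quantile normalization (0.60, 0.000863), and Gpx4, the peroxidase of membrane lipids, lowest at -0.19 (0.191). The values in brackets are limma adjusted p values.

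**Figure D4:**
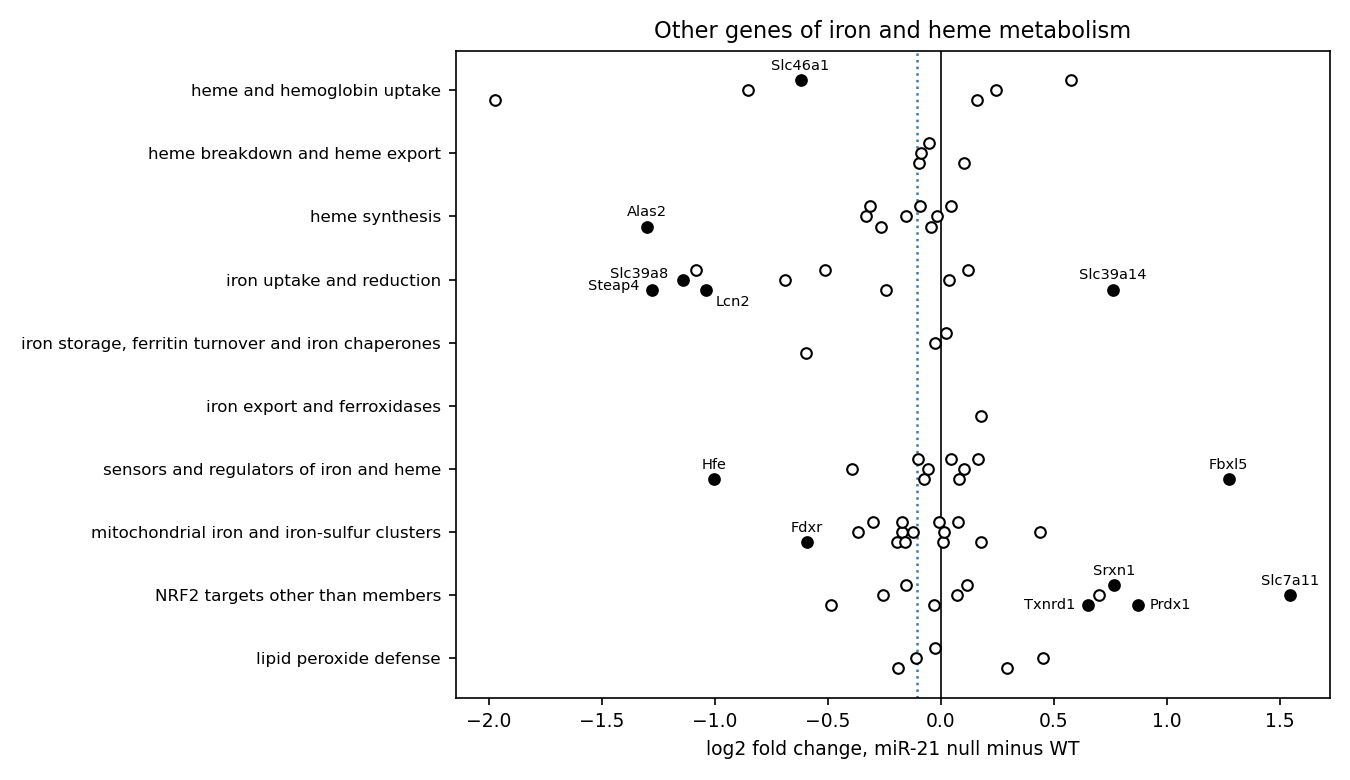
Each circle is the log2 fold change (miR-21 null minus WT) of 1 tested gene, in rows by list; filled circles with a name were called and open circles were not. The dotted line marks the median of all tested genes, -0.10. Slc7a11 at 1.55 and Fbxl5 at 1.27 lie farthest right, and Alas2 at -1.30 and Steap4 at -1.28 lie farthest left of the called genes, an order that depends on the pseudocount.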

How the data were processed

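CPM per gene, as deposited by the authors, covers the 8 samples; the submitters' processing notes name STAR, Partek 7.0 and mm10. The values carry an added 0.0001 and all 37 mitochondrial genes are at that floor. About 79% of low values were whole reads (within 0.1 of a read), so no count test was run. From the deposited CPM, log2(CPM + 1) was fitted with limma 3.58.1 (R 4.3.3, eBayes with trend, two-sided, Benjamini-Hochberg) for the 13850 genes that averaged 1 or more per 1000000 of the column totals. Log2 differences refer to this scale, which shrinks them for low genes. Nothing says that samples came from separate animals beyond the label of biological replicate, and p-values measure the spread between these samples. The 10 genes, the lists and the tests were chosen with earlier results of these data known. Named list genes are those called (up to 6), or the highest and lowest where none was; others are marked, and markers of cells are named as checks. Coordinates and elements come from GENCODE vM21 (GRCm38), where 93.2% of the symbols were found, and copies from blastn 2.17.0. The fit was tested on simulated data. Alternatives changed the pseudocount (0.1, 10), filter (none, 5 per 1000000), scaling, trend, sample weights, replicate block, samples left out and, for ferritin, summed copies. Some items are not reported here.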

Additional observations from a re-analysis of the deposited data

How the results depend on the processing

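Tfrc and Blvrb were called, and Hmox1, Slc11a1, Ftl1, Slc40a1, Spic and Slc11a2 were not, in all 17 alternatives; Cp lost its call in 6 and Fth1 gained one with the median of ratios. Slc11a2 turned positive with quantile normalization (0.00082) and the median of ratios (0.024). Import minus storage moved from -0.68 to -0.45 with quantile normalization. Import minus export turned from 0.26 to -0.0028 with a pseudocount of 10, which mutes Cp, and other causes were not tested. Import minus export was 0.13 without miR-21 null replicate 1 and 0.38 without miR-21 null replicate 4, the lowest and highest without 1 sample. The calls of the wider lists, 13, became 7 with no filter on low values, where more genes were tested, and 8 to 15 without 1 sample, the lowest without miR-21 null replicate 2. This last set of alternatives was added after seeing the data. At an adjusted p of at most 0.05 with the fold limit, Hmox1 was called too, which made 4. Over all genes, the 986 calls became 452 with a pseudocount of 10 and 515 with no filter. Samples given the same biological replicate number in the labels did not deviate together (correlations of 0.083, -0.11, -0.14 and 0.22), and the titles of the miR-21 null samples carry other numbers, so the number was not taken as a pairing; with it as a replicate block, 922 genes and the same count of 3 of the 10 were called, Spic had an adjusted p of 0.0465, and of the wider lists Cd163 (0.00131) and Hp (0.00259) gained a call and Lcn2 (0.0118) and Slc46a1 (0.00536) lost theirs. Every symbol had 1 row, so the choice of row could not change a value, and count tests were not run since whole reads were not recovered. The number of samples, 4 per genotype, limits the precision.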
